A study of Mus musculus with 4 samples.

Results

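Proteasome genes were compared between TS1 and TS2, 2 mouse lines whose labels name a CD4+ T lymphocyte origin. Both grew in Iscove-Dulbecco's medium with murine interleukin-9, without further treatment, and total RNA of 2 duplicates per line, A and B, was read on 1 Affymetrix array each. The labels describe culture in duplicate, but not how far the duplicates were grown apart, and give no genotype, passage or clonality. The p-values measure the spread between these duplicates, which may be technical. Levels are log2 of the deposited normalized intensities, and a difference is TS2 minus TS1 on that log2 scale. The genes were chosen by symbol: every gene with a probe set of its own whose symbol starts with Psma to Psmg and a number, without the inducible subunits Psmb8, Psmb9 and Psmb10. This gave 47 of 19938 genes, each read by its brightest probe set. By role they were 16 core genes (8 alpha and 8 beta), 17 regulatory genes (6 ATPases and 11 others), 4 activators, 1 inhibitor and 7 assembly chaperones. The symbols also caught Psmc3ip and Psme3ip1, which encode proteins that bind a proteasome subunit or activator and are no subunits themselves.

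The proteasome degrades proteins that carry ubiquitin chains. Its core is a barrel of stacked rings: the alpha subunits form the gates at both ends, and the beta subunits hold the proteolytic sites inside. The regulatory particle caps the barrel, binds ubiquitin, removes it, and uses a ring of ATPases to unfold the protein and thread it in. In lymphocytes the peptides it cuts feed presentation on major histocompatibility complex class I, and the turnover of cell cycle and signalling regulators also depends on it.

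The defining T cell markers were mostly low in TS1 and gave a mixed picture in TS2. Of 12 listed T cell markers 11 had a value, and 3 of them, Cd3e, Cd247 and Zap70, were higher in TS2 by limma, the linear model used throughout (adjusted p under 0.05). Mean log2 intensity in TS1 and TS2 was 6.43 and 12.64 for Cd3e, 6.37 and 9.20 for Cd247, and 8.57 and 10.84 for Zap70. The summed intensity of the 11 measured T cell markers was 974.5 to 2287 in TS1 and 11080 to 12770 in TS2. Cd4 read 5.15 to 5.38 and Cd3d 4.63 to 4.92 over the 4 arrays, and Cd3d and Cd2 were among the dimmest 30% of probe sets. Duplicates of both lines disagreed on some markers: Cd3g read 10.52 and 6.07 in TS1 (A and B) and 10.39 and 11.98 in TS2, and in TS2 Cd28 read 7.14 and 4.95 and Mcpt4, of mast cells, 6.60 and 10.10. Among the markers of other cells, Kit of mast cells, Klf1 and Epor of erythroid cells and Pdgfra of fibroblasts were higher in TS1. The other markers of these 3 lists did not pass: among them Col1a1, Col1a2, Col3a1 and Dcn of fibroblasts had differences of 0.058 to 0.14, and Mcpt4 and Fcer1a of mast cells of 2.96 and 0.24. By limma, none of the 5 measured B cell and 6 myeloid markers passed in either direction. The summed intensity of the mast cell markers was 7433 to 8492 in TS1 and 8892 to 10120 in TS2. Fcer1a alone, at 12.69 to 13.08 over the 4 arrays, made up most of this sum, and Ms4a2 was among the dimmest 30% of probe sets. The sum of the 3 measured erythroid markers was 448.8 to 470.9 in TS1 and 196.5 to 203.9 in TS2. That of the fibroblast markers was 415.1 to 534.8 and 379.8 to 387.8. The part of these marker differences in the results below was not tested.

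Proteasome genes held no large differences between the lines, but their typical difference was near that of all genes. Regardless of sign, the median difference was 0.1602 over the 47 genes and 0.1631 over all genes. Among genes brighter than the dimmest 30% of probe sets it was 0.1608 for members and 0.2115 for all. The median difference over the 47 genes was -0.098, against 0.013 over all 19938 genes. No member differed by 2-fold or more, against 6.04% of all genes, and 45 of the 47 lay within 1.5-fold, against 87.4% of all genes. The 95% interval of the difference, taken gene by gene, lay wholly inside 2-fold for 46 of the 47 (97.9%), against 88.6% of all genes. The exception was Psmc6. In bulk RNA, fewer cells that express a gene and less RNA per cell cannot be told apart.

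Of the 47 genes, 5 passed an adjusted p of 0.05 by limma with Benjamini-Hochberg adjustment over all genes (10.6%), where 13.5% of all genes passed. All 5 were higher in TS1, where 8.45% of all genes passed in that direction, and 0 were higher in TS2, where 5.05% did. At an unadjusted p under 0.05, 10 members were higher in TS1, against 17.1% of all genes, and 2 in TS2, against 12.3%. The share called was thus close to that of genes at large. Among genes brighter than the dimmest 30% of probe sets, 18.4% passed, and 5 of the 46 proteasome genes there (10.9%).

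The small differences leaned to 1 side. The difference was below 0 (TS1 above TS2) for 31 of the 47, against 47.3% of all genes. All arrays of 1 line lay above those of the other for 35 members (74.5%), against 58.4% of all genes: TS1 lay above TS2 for 24 members (29.3% of all genes) and TS2 above TS1 for 11 (29.1%). Among the 14349 genes brighter than the dimmest 30% of probe sets, 52.6% lay below 0, with a median of -0.018. Of the 46 members there, 31 lay below 0 (67.4%). The arrays did not overlap for 66% of these brighter genes, with TS1 above for 5277 and TS2 above for 4192. For the 46 members this share was 76.1%. The lean also depended on scaling. With another quantile normalization the median was -0.031, 26 genes lay below 0, and the counts without overlap were 19 and 15. With each array centred on its median they were -0.074, 28, and 21 and 11. Most members on chromosome 11 also shared a pattern between duplicates. For Psmb6, Psmc5, Psmd3, Psmd11, Psmd12, Psme3 and Psme4, TS1 B read below TS1 A and TS2 B above TS2 A. All of these lay below 0, from -0.53 for Psmb6 to -0.058 for Psme3. Psmc3ip had the same duplicate pattern but a difference above 0, and Psmb3 had B above A in both lines. Whether these genes shift together was not tested.

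**Figure D1:**
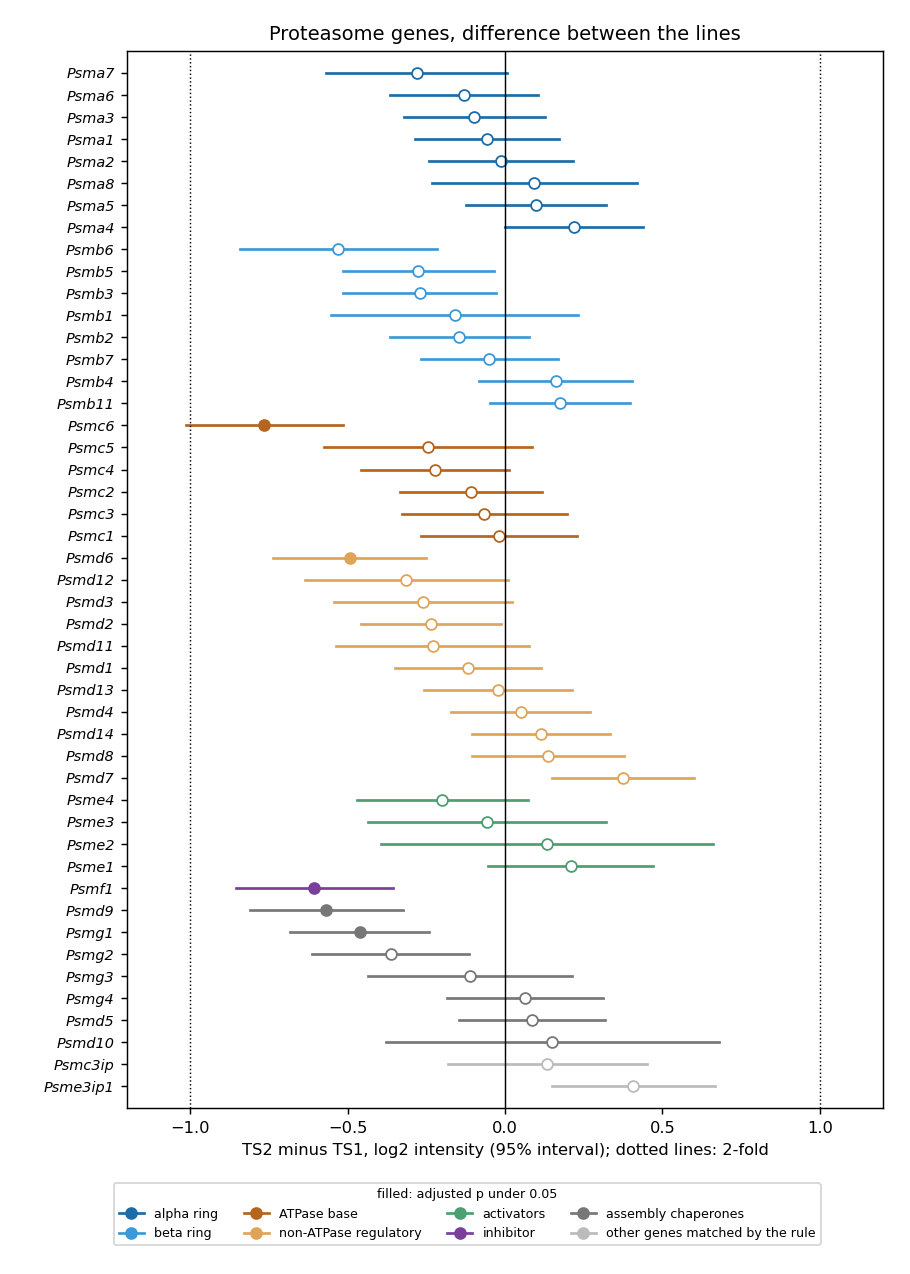
Difference between the lines (TS2 minus TS1, log2 intensity) for the 47 genes matched by the symbol rule, grouped by role, with the 95% interval from limma. Filled points passed an adjusted p of 0.05: Psmc6, Psmf1, Psmd9, Psmd6 and Psmg1, all higher in TS1. Of the 47 intervals, 46 lie inside the dotted 2-fold lines, and that of Psmc6 reaches -1.01.

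**Figure D2:**
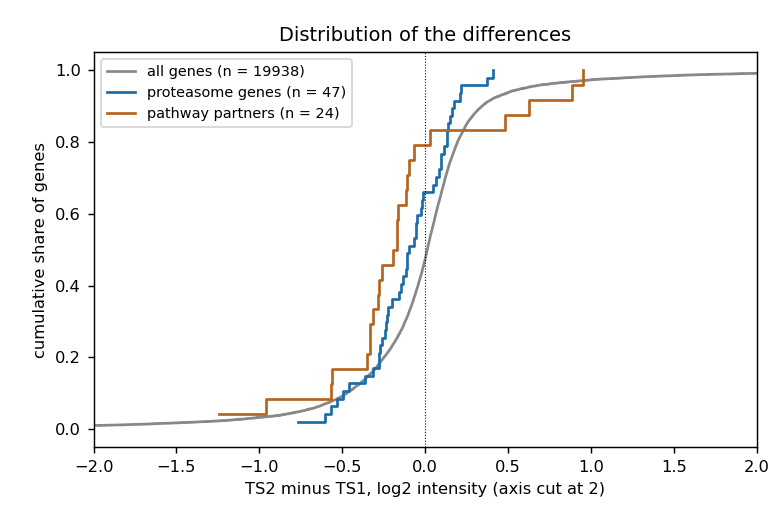
Cumulative share of genes against the difference between the lines (log2 intensity) for all 19938 genes, the 47 proteasome genes and 24 further genes of the ubiquitin and proteasome pathway. The curve of the proteasome genes rises within a narrow range, from -0.76 to 0.41, and 31 of the 47 lie left of 0.

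The 5 genes that passed have different roles: an ATPase, a lid subunit, 2 assembly chaperones and the inhibitor. Their promoter windows, and that of Psmb6, the standard catalytic subunit with the largest difference, are shown so that the genes that differed can be set side by side. Each window runs from 250 bases before to 50 bases after an annotated start, from RefSeq on GRCm38.p6, written in the direction of the gene. Psmc6 is at chr14:45329574-45329873 on the plus strand, Psmf1 at chr2:151741261-151741560 on the minus strand and Psmd9 at chr5:123227940-123228239 on the plus strand. Psmd6 is at chr14:14120896-14121195 on the minus strand, Psmg1 at chr16:95990911-95991210 on the minus strand and Psmb6 at chr11:70525107-70525406 on the plus strand. Capitals mark matches, on either strand, to TGACNNNGC, the core of the antioxidant response element that Nfe2l1 and Nfe2l2 bind with small Maf proteins, and to CCGGAA, the core bound by ETS factors.
Psmc6: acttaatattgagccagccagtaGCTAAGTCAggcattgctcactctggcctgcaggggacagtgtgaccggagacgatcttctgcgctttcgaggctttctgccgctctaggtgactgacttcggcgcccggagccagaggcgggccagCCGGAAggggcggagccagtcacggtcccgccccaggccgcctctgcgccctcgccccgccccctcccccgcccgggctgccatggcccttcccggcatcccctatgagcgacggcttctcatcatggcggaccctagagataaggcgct
Psmf1: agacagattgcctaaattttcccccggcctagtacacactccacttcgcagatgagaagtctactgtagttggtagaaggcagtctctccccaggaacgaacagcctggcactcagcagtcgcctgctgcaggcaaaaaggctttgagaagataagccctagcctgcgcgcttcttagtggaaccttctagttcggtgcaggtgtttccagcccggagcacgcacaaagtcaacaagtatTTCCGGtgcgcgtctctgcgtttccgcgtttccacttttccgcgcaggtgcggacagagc
Psmd9: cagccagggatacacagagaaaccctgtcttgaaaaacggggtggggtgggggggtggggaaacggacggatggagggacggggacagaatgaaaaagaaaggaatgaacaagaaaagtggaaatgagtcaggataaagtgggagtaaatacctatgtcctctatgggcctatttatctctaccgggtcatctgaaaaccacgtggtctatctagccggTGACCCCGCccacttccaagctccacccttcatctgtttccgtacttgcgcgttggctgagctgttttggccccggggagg
Psmd6: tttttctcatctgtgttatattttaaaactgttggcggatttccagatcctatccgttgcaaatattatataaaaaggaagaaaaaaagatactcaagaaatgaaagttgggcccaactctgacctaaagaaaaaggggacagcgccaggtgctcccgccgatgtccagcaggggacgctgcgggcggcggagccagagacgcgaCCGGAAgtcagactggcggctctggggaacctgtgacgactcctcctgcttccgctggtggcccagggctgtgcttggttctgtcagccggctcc
Psmg1: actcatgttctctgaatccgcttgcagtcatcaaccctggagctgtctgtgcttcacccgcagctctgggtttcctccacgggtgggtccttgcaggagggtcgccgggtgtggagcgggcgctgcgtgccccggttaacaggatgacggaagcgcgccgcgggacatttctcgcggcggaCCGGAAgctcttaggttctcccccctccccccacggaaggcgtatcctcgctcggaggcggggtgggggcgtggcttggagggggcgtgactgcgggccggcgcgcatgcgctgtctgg
Psmb6: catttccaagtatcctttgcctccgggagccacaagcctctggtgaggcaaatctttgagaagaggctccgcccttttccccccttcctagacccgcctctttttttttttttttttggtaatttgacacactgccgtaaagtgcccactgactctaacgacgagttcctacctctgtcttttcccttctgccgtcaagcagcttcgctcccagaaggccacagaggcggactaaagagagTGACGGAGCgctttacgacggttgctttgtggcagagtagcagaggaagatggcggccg

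Of these 6 windows, those of Psmc6, Psmd9 and Psmb6 held the antioxidant response core, and those of Psmc6, Psmf1, Psmd6 and Psmg1 the ETS core. The antioxidant response match of Psmb6 starts at base -9 and that of Psmd9 at base -31, counted from the annotated start, whereas that of Psmc6 lies farther out, at -227. No matches overlap in these 6 windows, and none holds CCAAT, the third motif searched. Windows were found for 39 of the 47 genes, 43 windows in all. The ETS core was in 53.5% of these 43 windows, against 14.9% of all 32851 promoter windows of the same length. TGACNNNGC was in 14%, against 12.4% of all, and CCAAT in 34.9%, against 37.4%. The genes whose windows held TGACNNNGC were Psmb5, Psmb6, Psmc6, Psmd9, Psmd12 and Psme4. The members were set against all windows, not against windows of like base composition or genes of like expression. These shares therefore do not show a trait particular to proteasome genes. A match describes the letters of a window and says nothing of binding.

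Psmc6, an ATPase of the base that unfolds substrates, had the largest difference of all members. Its log2 intensity was 12.04 and 12.13 in TS1 (A and B) and 11.26 and 11.38 in TS2. Both TS1 arrays lay above both TS2 arrays, 1.70-fold on average, with a difference of -0.76 (SE 0.097, 95% interval -1.01 to -0.52, limma adjusted p = 0.0115). The other 5 ATPase genes also had differences below 0, from -0.24 for Psmc5 to -0.018 for Psmc1, and none of them passed. Psmc1 lost that direction with centring or another quantile normalization, each of which left 5 of the 6 below 0. The arrays of Psmc1 and Psmc3 overlapped between the lines.

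Psmf1 encodes an inhibitor that binds the core. It read 10.48 and 10.34 in TS1 and 9.81 and 9.79 in TS2. The TS1 arrays were higher, by 1.52-fold (difference -0.61, SE 0.097, adjusted p = 0.0210), and the groups did not overlap.

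The assembly chaperones hold intermediates of the complex and leave before it is complete. Psmd9, a chaperone of the ATPase base, read 8.83 and 8.72 in TS1 and 8.17 and 8.25 in TS2, a difference of -0.57 (SE 0.094, adjusted p = 0.0231). Psmg1, which guides assembly of the alpha ring, read 10.18 and 10.16 in TS1 and 9.73 and 9.68 in TS2, a difference of -0.46 (SE 0.086, adjusted p = 0.0307). For both genes the TS1 arrays lay above the TS2 arrays. Psmg2, which acts as a pair with Psmg1, had a difference of -0.36 that did not pass (95% interval -0.61 to -0.11, adjusted p = 0.0753). The other 4 chaperones, Psmg3, Psmg4, Psmd5 and Psmd10, had differences from -0.11 to 0.15 and did not pass. Psmd10, singled out after its values were seen, read 9.57 and 10.16 in TS1, and its interval ran from -0.38 to 0.68.

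**Figure D3:**
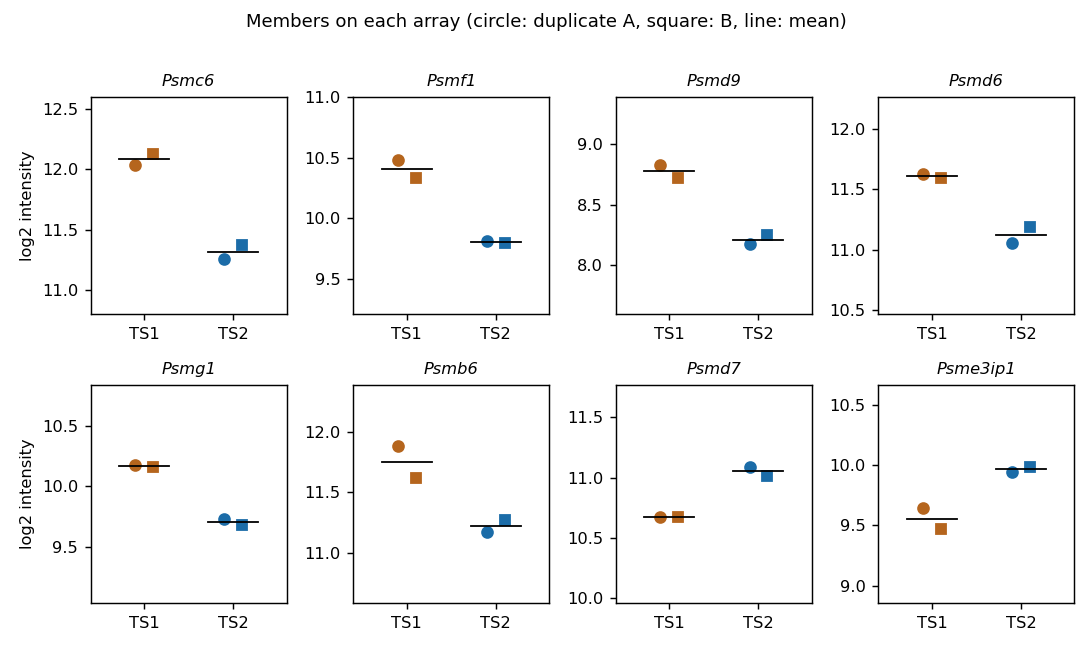
Log2 intensity on each array for the 5 genes that passed, for Psmb6 and Psmd7, which narrowly missed the threshold, and for Psme3ip1, the gene with the largest difference above 0. Each panel spans the same height. Circles are duplicate A, squares duplicate B and lines the mean of a line, and in all 8 panels the arrays of TS1 and TS2 do not overlap.

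Among the 11 other subunits of the regulatory particle, Psmd6, a subunit of its lid, was the 1 that passed. Its log2 intensity was 11.63 and 11.60 in TS1 and 11.05 and 11.19 in TS2, a difference of -0.49 (SE 0.095, adjusted p = 0.0333). The opposite direction was led by Psmd7, the lid subunit that pairs with the deubiquitinase Psmd14, with 10.68 and 10.67 in TS1 and 11.09 and 11.01 in TS2. Its arrays did not overlap, but the difference of 0.38 did not pass (95% interval 0.15 to 0.60, adjusted p = 0.0546). It passed with a prior variance that follows intensity (limma adjusted p = 0.0297), with another quantile normalization (0.0398) and without the dimmest probe sets (0.0447). It did not pass with centring (0.0545), a robust prior variance (0.0533) or the letter A or B as a block (0.111). Leaving out single arrays moved the difference of Psmd7 between 0.34 and 0.41.

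Psmd14, which cuts ubiquitin off the substrate, read 12.04 and 12.01 in TS1 and 12.12 and 12.15 in TS2, a difference of 0.11 (95% interval -0.11 to 0.33, adjusted p = 0.458). Psmd2, a scaffold that docks ubiquitin and shuttle proteins, read 12.31 and 12.37 in TS1 and 12.10 and 12.11 in TS2 (difference -0.24, interval -0.46 to -0.013, adjusted p = 0.153). Psmd4, a ubiquitin receptor, read 10.23 and 10.28 in TS1 and 10.30 and 10.31 in TS2 (difference 0.050, interval -0.17 to 0.27, adjusted p = 0.762). The arrays of these 3 genes did not overlap between the lines, but none passed. Psmd2 did pass with a prior variance that follows intensity (limma adjusted p = 0.0426). The remaining 6, Psmd1, Psmd3, Psmd8, Psmd11, Psmd12 and Psmd13, had differences from -0.31 for Psmd12 to 0.14 for Psmd8. Over the 17 regulatory genes, 13 differences were below 0, with a median of -0.12, and 11 were below 0 with centring or another quantile normalization.

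None of the 16 core genes passed limma, in either direction, where 13.5% of all genes did. At an unadjusted p under 0.05, 3 of the 16 were higher in TS1, against 17.1% of all genes, and 0 in TS2, against 12.3%. Of the 3 standard catalytic subunits, Psmb6, the caspase-like site, read 11.88 and 11.62 in TS1 and 11.17 and 11.27 in TS2. Its arrays did not overlap, and its difference of -0.53 (SE 0.12, interval -0.84 to -0.22) narrowly missed the threshold (adjusted p = 0.0524). It passed without the dimmest probe sets (limma adjusted p = 0.0464), with a robust prior variance (0.0477) and with one that follows intensity (0.0305). It did not pass with centring (0.0747), another quantile normalization (0.0947) or the letter A or B as a block (0.105). Leaving out single arrays moved the difference of Psmb6 between -0.66 and -0.40. Psmb5, the chymotrypsin-like site and main target of proteasome inhibitor drugs, read 12.76 and 12.65 in TS1 and 12.46 and 12.40 in TS2 (difference -0.28, interval -0.52 to -0.036, adjusted p = 0.129). Psmb5 did pass with a prior variance that follows intensity (limma adjusted p = 0.0376). Psmb7, the trypsin-like site, read 11.01 and 11.03 in TS1 and 10.97 in both TS2 arrays (difference -0.050, interval -0.27 to 0.17, adjusted p = 0.759).

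The structural core genes lay close together. Of the 4 other beta genes of the standard ring, Psmb1, Psmb2 and Psmb3 had differences of -0.16, -0.15 and -0.27, and Psmb4 of 0.16. The alpha genes ranged from -0.28 for Psma7 to 0.22 for Psma4. Of the 8, 5 lay below 0, against 4 with centring and 3 with another quantile normalization. Psma4 read 11.14 and 11.12 in TS1 and 11.37 and 11.33 in TS2, without overlap (adjusted p = 0.171). Psma1 to Psma3 and Psma6 had differences from -0.13 to -0.013, and Psma5 of 0.098. The 2 core genes with restricted expression elsewhere did not pass either. Psmb11, the beta subunit of thymic cortical epithelium, read 5.84 and 5.90 in TS1 and 6.04 in both TS2 arrays (adjusted p = 0.266). Psma8, the alpha subunit of male germ cells, read 4.63 and 4.53 in TS1 and 4.82 and 4.53 in TS2, overlapping between the lines, and was the only member among the dimmest 30% of probe sets (adjusted p = 0.694).

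The activators open the core without the regulatory particle. Psme1 and Psme2, which together form the activator induced by interferon gamma, differed by 0.21 and 0.13. Psme1 read 11.03 and 10.86 in TS1 and 11.17 and 11.14 in TS2, without overlap (adjusted p = 0.258). Psme2 read 12.34 and 11.74 in TS1 and 12.17 in both TS2 arrays, which lay between the TS1 duplicates (adjusted p = 0.734). Psme3, the nuclear relative, read 12.09 and 12.06 in TS1 and 11.83 and 12.21 in TS2, with overlap (adjusted p = 0.846). Psme4, a large single-chain activator, read 10.99 and 10.86 in TS1 and 10.65 and 10.80 in TS2 (difference -0.20, adjusted p = 0.294). None of the 4 activators passed limma, and none reached an unadjusted p under 0.05. A probe set shared by Psme2 and its near-identical copy Psme2b differed by 0.31, and reads of the pair cannot be told apart there.

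The 3 inducible subunits replace the standard catalytic ones in the immunoproteasome and were left out of the 47. They were higher in TS2, while none of their standard counterparts passed with the main settings. Psmb9 was higher in TS2 by 0.95 (adjusted p = 0.0132), Psmb10 by 0.89 (adjusted p = 0.0114) and Psmb8 by 0.63 (adjusted p = 0.0292), and Psmb8 and Psmb10 lost their calls without TS2 A (adjusted p = 0.148 and 0.0703) or TS2 B (0.0768 and 0.0504), Psmb9 without TS2 A (0.0551) and Psmb8 also without TS1 A (0.0537) or TS1 B (0.0954). Set against its standard counterpart on the same array, Psmb9 over Psmb6 was 2.79-fold higher in TS2 (log2 1.48, SD 0.24 in TS1 and 0.28 in TS2, n = 2). The ratio of Psmb8 to Psmb5 was 1.87-fold higher and that of Psmb10 to Psmb7 1.91-fold higher. For the 3 ratios both TS2 arrays lay above both TS1 arrays, and an exact two-sided permutation test gave p = 0.333 for each, the smallest it can give with these arrays. These 3 comparisons were chosen after their values were seen. Leaving out single arrays moved the Psmb9 ratio between 1.28 and 1.68 on the log2 scale.

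**Figure D4:**
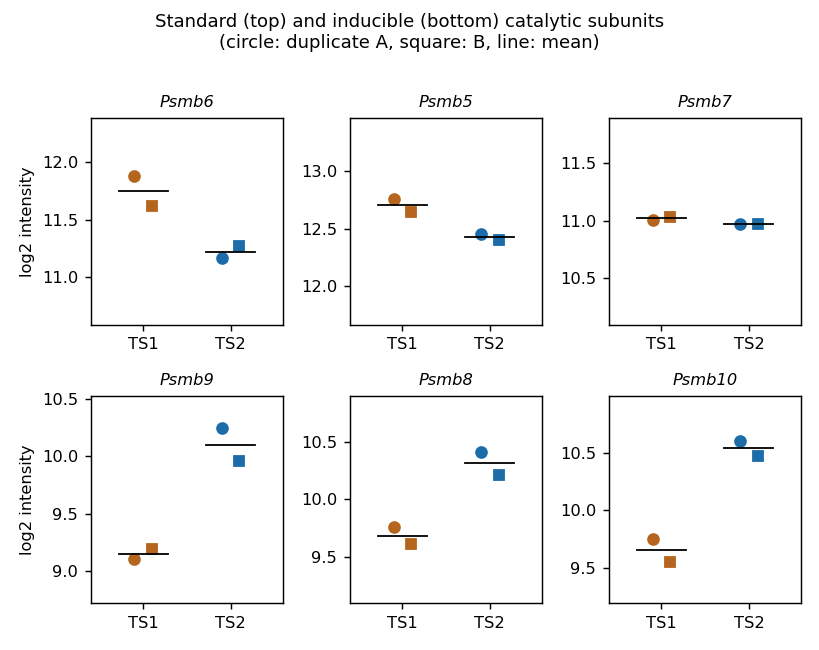
Log2 intensity of the standard catalytic subunits (top) and of the inducible subunit that replaces each (bottom) on every array. Circles are duplicate A, squares duplicate B and lines the mean of a line, and each panel spans the same height. The inducible subunits are higher in TS2 by 0.63 to 0.95, and the standard ones have differences of -0.53, -0.28 and -0.050. Levels of different genes are not comparable between panels.

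Psmc3ip, a factor of meiotic recombination named for its binding to an ATPase subunit, had a difference of 0.13 (adjusted p = 0.546). Psme3ip1, which binds the activator Psme3, read 9.64 and 9.47 in TS1 and 9.95 and 9.98 in TS2. Its arrays did not overlap, but its difference of 0.41, the largest above 0, did not pass (adjusted p = 0.0633). Without these 2 genes, 31 of 45 differences lay below 0, with a median of -0.11 (28 and 26 with centring and another quantile normalization).

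Fewer of the 5 genes kept their calls when single arrays were left out. Such fits have fewer degrees of freedom, and the calls over all genes fell too. Psmc6 still passed when TS1 A was left out (adjusted p = 0.0287) or TS1 B (0.0449), and Psmf1 without TS1 B (0.0398). All 5 were lost without TS2 A, where the adjusted p ran from 0.0749 to 0.184, and without TS2 B, where it ran from 0.0521 to 0.168. The differences moved less: that of Psmc6 lay between -0.82 and -0.71 and that of Psmg1 between -0.48 and -0.44. In the other direction, 10 members passed with a prior variance that follows intensity, 9 higher in TS1 and 1 in TS2, which is 21.3% of members where 14.5% of all genes passed.

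Of 33 further genes of the ubiquitin and proteasome pathway, 24 had a value, the 3 inducible subunits among them. Without those, 4 of 21 were higher in TS1 and 1 in TS2 by limma (23.8% called, against 13.5% of all genes). None of the 21 was among the dimmest 30% of probe sets, and of all genes brighter than that 18.4% passed. Of the 21 differences 19 lay below 0 (90.5%), against 47.3% of all genes and 52.6% of the brighter ones. Their median was -0.26. The count of 19 was the same with centring and with another quantile normalization. The other listed genes are not analysed here. Over the 24 genes 8 passed with all arrays, and leaving out an array lowered this count as it did that of all genes. Leaving out TS1 A gave 5 (11% of all genes passed then), TS1 B gave 4 (7.85%), TS2 A gave 2 (4.91%) and TS2 B gave 3 (5.19%).

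Ubqln2, a shuttle receptor that carries ubiquitinated proteins to the proteasome, had the largest difference of the pathway. It read 10.19 and 10.29 in TS1 and 8.88 and 9.11 in TS2, 2.37-fold higher in TS1 (difference -1.24, SE 0.12, adjusted p = 0.00472). It kept its call whichever array was left out, with an adjusted p of 0.0161 to 0.0271. Ngly1, which strips sugars from Nfe2l1 as part of its activation, read 10.23 and 10.38 in TS1 and 9.32 and 9.37 in TS2 (difference -0.96, SE 0.097, adjusted p = 0.00611). It also kept its call without any single array, with an adjusted p of 0.0143 to 0.0459.

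Sem1, a small lid subunit outside the Psm names, read 10.23 and 10.37 in TS1 and 9.78 and 9.69 in TS2 (difference -0.56, adjusted p = 0.0266). Uba6, an enzyme that activates ubiquitin, read 10.49 and 10.42 in TS1 and 9.87 and 9.91 in TS2 (difference -0.57, adjusted p = 0.0196). The TS1 arrays of both genes lay above those of TS2. Sem1 kept its call only without TS1 A (adjusted p = 0.0447), and Uba6 lost its call whichever array was left out (0.0531 to 0.122).

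Of the transcription factors of proteasome genes, Nfe2l2 passed and Nfe2l1 did not. Nfe2l1, which raises proteasome genes when degradation is short, read 10.59 and 10.43 in TS1 and 10.17 and 10.32 in TS2 (difference -0.26, interval -0.54 to 0.021, adjusted p = 0.198). Nfe2l2, its relative of the oxidative stress response, read 10.83 and 11.01 in TS1 and 11.44 and 11.37 in TS2, higher in TS2 by 0.48 (SE 0.10, adjusted p = 0.0440). The call of Nfe2l2 was lost whichever array was left out (adjusted p = 0.0617 to 0.213). Pomp, the maturation factor of the core, read 10.10 and 10.20 in TS1 and 10.01 and 9.90 in TS2 (difference -0.20, adjusted p = 0.264). Vcp, the segregase that extracts ubiquitinated proteins, and its cofactors Ufd1, Faf1 and Nploc4 had differences of -0.32, -0.33, -0.17 and -0.12, and none passed.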

How the data were processed

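Per the submitters' processing notes, the authors used Affymetrix Expression Console and RMA, a method of background correction, quantile normalization and probe summary. The authors deposited linear intensities, from 5.98 to 23157, and log2 was taken here. Detection calls and scan batches are not analysed here. Having 4 arrays limits the precision. Of 35556 probe sets, 21789 named 1 gene in the platform annotation, and symbols were updated through RefSeq (GRCm38.p6). All 19938 genes entered 1 linear model with the line as factor (limma 3.58.1 in R 4.3.3), with 2 residual degrees of freedom and Benjamini-Hochberg adjustment over all genes at 0.05. The fit was tested on simulated data in which 200 genes were changed. It recovered 0.299% of them at a log2 change of 0.5, 50.1% at 1 and 93.8% at 2. In the data 2691 genes passed, so the adjustment there is less strict than with 200 changed genes, and these shares do not carry over. Psmg1 passed at -0.46, whereas Psmb6 at -0.53 did not. A gene that did not pass may still differ.

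The members, lists and motifs were chosen with earlier results of these data known. Genes given with array values were the called members, the 4 largest differences in each direction, fixed subunits by role, called pathway genes, and Pomp, Nfe2l1 and Nfe2l2 in any case. Windows were matched by Entrez gene number. Pairs of overlapping windows on opposite strands (1668) read as reverse complements of each other. As alternatives, the letter A or B entered as a block, single arrays were dropped, arrays were centred on their medians or quantile normalized again, the dimmest 30% of probe sets were removed, probe sets were averaged per gene, and the prior variance followed intensity or was made robust.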

Additional observations from a re-analysis of the deposited data

How the results depend on the processing

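With the replicate letter as a block (replicate block), 1 proteasome gene passed, higher in TS1, and 5 pathway genes, 2 of them higher in TS1, where all genes gave 1666 calls, 664 for TS2 and 1002 for TS1. The labels state no culture shared by a letter. The deviations of TS1 A and TS2 A from their line means correlated at -0.029 over genes. Such an average cannot decide whether the letters pair arrays across lines. Leaving out 1 array at a time gave 0 to 2 proteasome genes, all higher in TS1, and 2 to 5 pathway genes, 0 to 2 higher in TS2 and 2 to 3 higher in TS1. Over all genes it gave 979 to 2198 calls, 420 to 861 higher in TS2 and 559 to 1337 higher in TS1. The remaining array of a line is then assumed to vary like the other line, and fewer degrees of freedom are left. With another quantile normalization 3 members were higher in TS1 and 1 in TS2 (8.51% called, against 12.2% of all genes), with a median difference of -0.031. Psmd6 and Psmg1 lost their calls there (limma adjusted p = 0.0518 and 0.0543). Without the dimmest 30% of probe sets 6 of 46 members were higher in TS1 and 1 in TS2 (15.2% called, against 20% of all genes). With a prior variance that follows intensity 10 passed, 9 higher in TS1 and 1 in TS2 (21.3% called, against 14.5% of all genes). The cause of these shifts was not tested. The count of intervals inside 2-fold lay between 45 and 47 in these settings, the latter with centring, quantile normalization or the intensity trend.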

Other observations

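Of the 47 genes, 5 had several probe sets of their own. The 3 of Psma3 differed between the lines by -0.098, -0.11 and -0.11, the 2 of Psmb3 by -0.27 and -0.23, the 2 of Psmd2 by -0.24 and -0.22 and the 2 of Psmc1 by -0.018 and -0.094. Those of Psma5 had differences of opposite sign, 0.098 for the brighter and -0.077 for the other, and neither passed (limma adjusted p = 0.613 and 0.717 over all probe sets). The widest gaps between duplicates among the members were 0.59 in TS1, for Psme2 and Psmd10, and 0.38 in TS2, for Psme3.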
